A study of Danio rerio with 6 samples.

Results

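The axon guidance ligands and receptors were taken as all probe sets of the array whose platform gene symbol begins with the names of Eph receptors (epha, ephb), ephrins (efna, efnb), semaphorins of classes 3 to 7, plexins, neuropilins, Robo receptors, Slits, netrins, Dcc or Unc5. The rule found 48 of 15617 probe sets, which stand for 41 genes: 10 probe sets of Eph receptors, 12 of ephrins, 10 of semaphorins, 3 of plexins, 2 of neuropilins, 3 of Robo receptors, 2 of Slits and 5 of netrins. The last one, unc50, matched by name alone and encodes a membrane protein that is no netrin receptor. No probe set was annotated to dcc or to an Unc5 receptor, so the receptors for netrin are represented below only by a related gene outside the rule.

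The samples were whole zebrafish embryos of the Tu strain, 3 arrays of embryos kept in leflunomide at 6.5 uM and 3 arrays of embryos kept in DMSO, the solvent control. Exposure lasted in both groups from 50% epiboly, a gastrula stage, to 24 hours after fertilization, when the first axon tracts are being laid down. Leflunomide is given for rheumatoid arthritis, and its metabolite blocks dihydroorotate dehydrogenase, which makes a precursor of the pyrimidine nucleotides. The labels name neither the number of embryos behind an array nor separate clutches, so the p-values rest on how far these 6 samples spread, possibly for technical reasons only, and the number of arrays limits the precision.

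Growing axons are steered by proteins that they meet on cells or in the matrix. Slits are secreted, for example by the ventral midline, and repel axons that carry Robo receptors; netrins, made by the floor plate, act through Dcc, neogenin and Unc5 receptors. Ephrins are bound to the cell surface and signal by contact with Eph receptors, in axon targeting as well as at the borders of hindbrain segments, somites and arteries and veins. Semaphorins act through plexins, and those of class 3 mostly need a neuropilin as coreceptor.

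Each value is a log2 expression value relative to the median of the 6 arrays for that probe set, as deposited, so 0 means the middle of the arrays and no absolute level is given. Differences are leflunomide minus DMSO, fitted with limma over all tested probe sets, and a probe set was called at a Benjamini-Hochberg adjusted p under 0.05. Tested were probe sets with a median level of at least 4, on the log2 scale of the array, recovered from the rounding of the values. That left 44 of the 48 members, for 38 of the 41 genes. In whole embryos, fewer cells of a type and less RNA per cell cannot be told apart.

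Most members were not called, and of the 5 called probe sets 3 were those of Robo receptors. Of the 44 tested probe sets, 5 were lower after leflunomide, for robo1, robo2, robo3, epha4b and sema5a, and 0 were higher in limma, while 11 had an unadjusted p under 0.05, or 25.0%, where 35.4% of all tested probe sets did. The calls make up 11.4% of the members, against 20.6% called among all 12731 tested probe sets; in that background 10.8% were called lower and 9.79% higher. The groups did not overlap for 10 of the 44 members, 7 below and 3 above DMSO. In the background 40.8% did not overlap, 18.5% below and 22.4% above. Of the receptor probe sets 4 of 17 were called, and of the ligand probe sets 1 of 26. The median difference was -0.06 for the members and 0.04 for all tested probe sets.

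**Figure D1:**
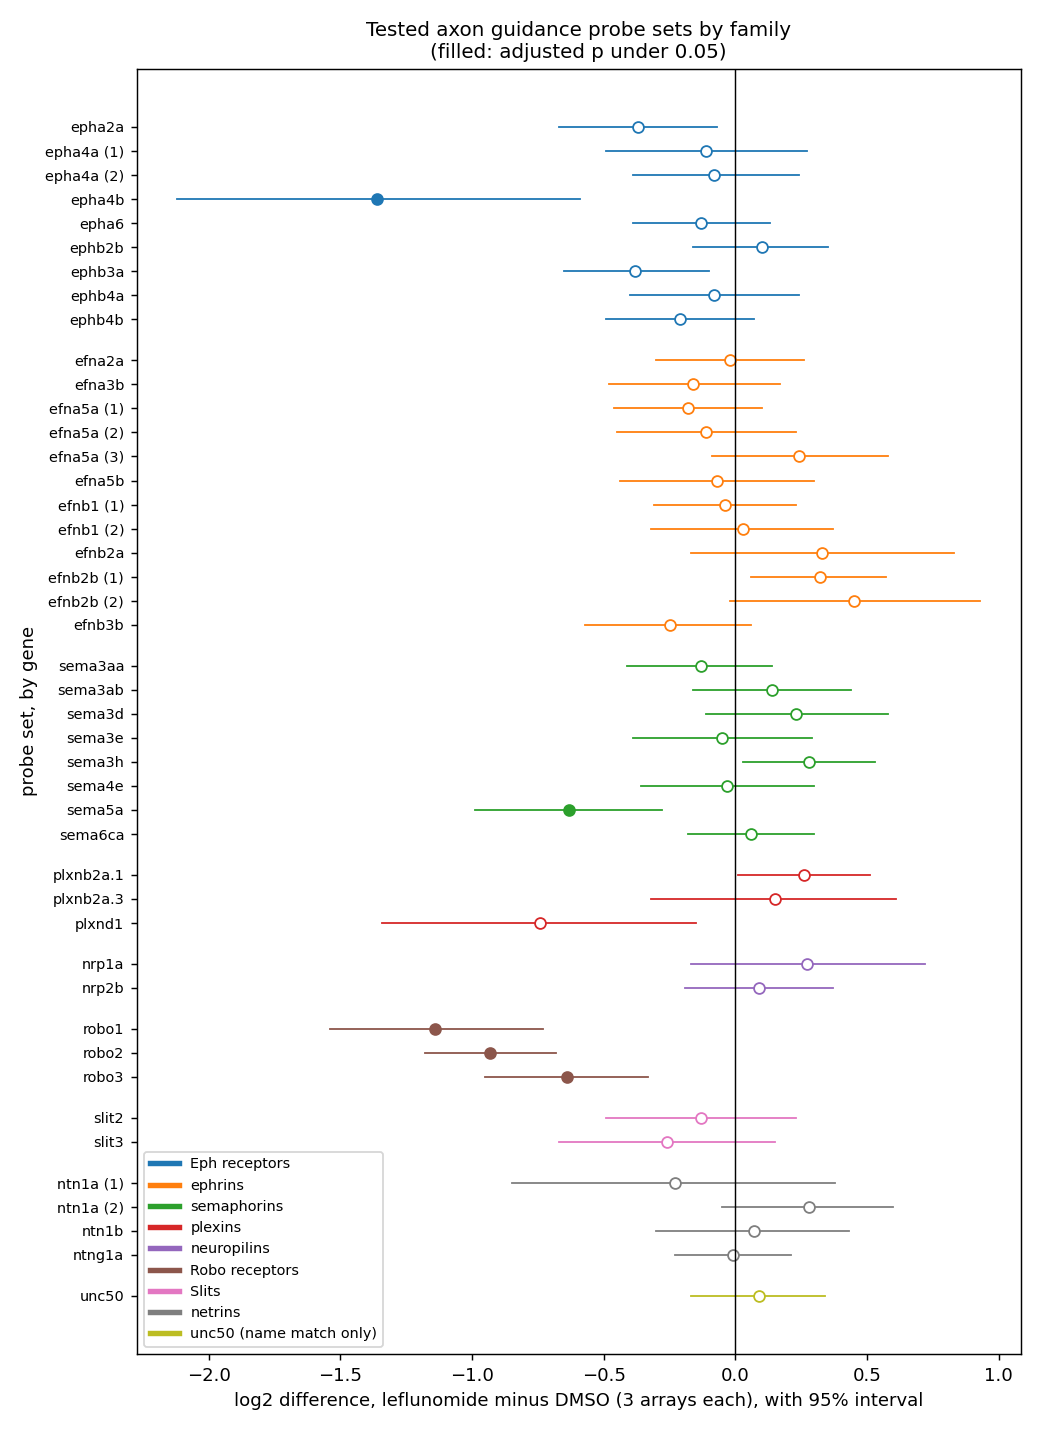
Log2 difference (leflunomide minus DMSO, 3 arrays each) of the 44 tested probe sets, grouped by family, with limma's 95% interval as a line; filled points passed the test and numbers in brackets tell probe sets of 1 gene apart. The 3 Robo receptors, epha4b and sema5a have filled points left of 0, from -1.36 to -0.63, while the 12 ephrin probe sets lie between -0.25 and 0.45.

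The 3 Robo receptors fell together. They are transmembrane receptors of the immunoglobulin superfamily that bind Slits; robo2 is the gene of the zebrafish mutant astray, in which retinal axons go astray, and robo3 is needed for midline crossing by commissural axons. For robo1 the values were -0.30, -0.87 and -0.90 on leflunomide arrays 1, 2 and 3, against 0.49, 0.55 and 0.30 on DMSO arrays 1, 2 and 3. All leflunomide arrays were below all DMSO arrays, array 1 by less than arrays 2 and 3. Over all tested probe sets 18.5% lay below DMSO without overlap, and 10.8% were called lower. robo1 fell by 1.14 (SE 0.17, limma adjusted p = 0.00563).

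For robo2 the values were -0.38, -0.57 and -0.51 on the leflunomide arrays, against 0.38, 0.58 and 0.38 on the DMSO arrays. The leflunomide arrays lay close together here (SD 0.10), as did the DMSO arrays (SD 0.12), and the groups were far apart. robo2 fell by 0.93 (SE 0.11, 1.91-fold, limma adjusted p = 0.00211), the lowest adjusted p among the members. For robo3 the values were -0.20, -0.65 and -0.35 on the leflunomide arrays, against 0.26, 0.20 and 0.27 on the DMSO arrays. Again no array overlapped, with array 2 the lowest, and robo3 fell by 0.64 (SE 0.13, 1.56-fold, limma adjusted p = 0.0156). The calls of robo1 and robo2 held in all 6 fits that left out 1 array, with adjusted p at most 0.0294 and 0.0153. That of robo3 was lost without DMSO array 1 (adjusted p = 0.0592), 2 (adjusted p = 0.0517) or 3 (adjusted p = 0.0625).

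The Slits, their ligands, were not called (0 of 2 tested, where 20.6% of all tested probe sets were called). For slit2 the values were 0.18, -0.13 and -0.43 on the leflunomide arrays, against -0.01, 0.02 and 0.01 on the DMSO arrays. The DMSO arrays agreed closely and the leflunomide arrays spread to both sides of them, so that the difference of -0.13 (95% interval -0.49 to 0.23) had limma adjusted p = 0.602. For slit3 the values were 0.05, -0.01 and -0.54 on the leflunomide arrays, against -0.01, 0.01 and 0.27 on the DMSO arrays. Only array 3 stood clear of the DMSO arrays, and the difference was -0.26 (95% interval -0.67 to 0.15, adjusted p = 0.341). Whether Robo and Slit genes differed from each other in their response was not tested.

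**Figure D2:**
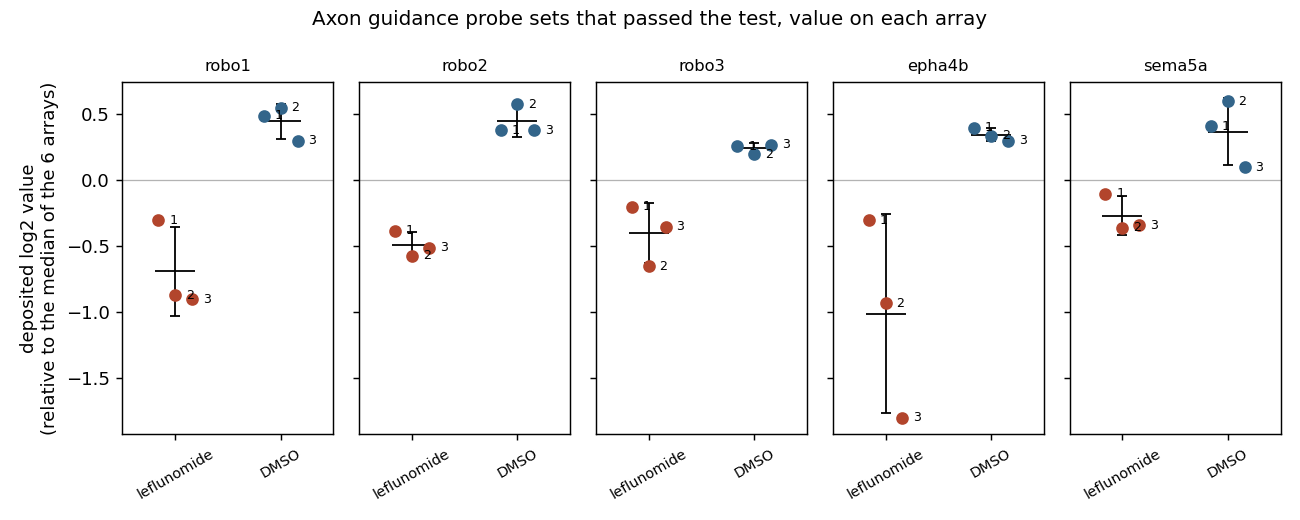
Deposited log2 values, relative to the median of the 6 arrays, of the 5 probe sets that passed the test, with leflunomide arrays in red and DMSO arrays in blue, numbered 1 to 3; bars show the mean and SD of 3 arrays. No leflunomide array reaches a DMSO array in any of the 5, and epha4b spreads most, from -0.30 to -1.80 on the leflunomide arrays.

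Among the Eph receptors, a family of receptor tyrosine kinases, 1 of 9 tested probe sets fell and 0 rose. That is 11.1% called lower, near the 10.8% of all tested probe sets. The 1 that fell was that of epha4b, whose paralog epha4a is known for its stripes in the hindbrain. For epha4b the values were -0.30, -0.93 and -1.80 on the leflunomide arrays, against 0.40, 0.34 and 0.30 on the DMSO arrays. The DMSO arrays agreed (SD 0.05) and the leflunomide arrays did not (SD 0.75), though all lay below. epha4b fell by 1.36 (SE 0.33, 2.56-fold, limma adjusted p = 0.0264). It missed the threshold when DMSO array 1, 2 or 3 was left out (adjusted p = 0.0844, 0.0786 and 0.0883), or leflunomide array 2 (adjusted p = 0.0615). Without leflunomide array 3, the lowest, it stayed called, with a smaller difference of -0.96 (adjusted p = 0.0197).

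For the paralog epha4a the groups overlapped at both probe sets. The first was at 0.01, 0.10 and -0.43 on the leflunomide arrays, against -0.01, -0.15 and 0.16 on the DMSO arrays, and the second at -0.13, -0.15 and 0.22, against 0.07, -0.07 and 0.18. Their differences were -0.11 and -0.08 (limma adjusted p = 0.695 and 0.744), with 95% intervals from -0.49 to 0.27 and from -0.39 to 0.24. The hindbrain segment list is not limited to the segments where epha4a is expressed. In it 1 of 16 tested genes rose (hoxb1a, 0.80, limma adjusted p = 0.0204) and 0 fell, with each gene taken at 1 probe set. Over all 7849 tested genes 21.6% were called, 11.1% lower and 10.5% higher. The call of hoxb1a was lost in 4 of the 6 fits without 1 array, with adjusted p up to 0.0744. The next by adjusted p, rfng, irx7 and hoxb2a, had differences of -0.37, 0.48 and -0.24. At probe sets not used for the count, hoxb2a (-0.64, limma adjusted p = 0.00499) and hoxa3a, named after its value was seen (-0.47, adjusted p = 0.0235), were called lower.

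Another pair of Eph receptors had non-overlapping groups without passing the test. With epha4b, 3 of the 9 Eph receptor probe sets did not overlap, all below DMSO. Of all tested probe sets 40.8% did not overlap, 18.5% below. For epha2a the values were -0.40, -0.47 and -0.05 on the leflunomide arrays, against 0.07, 0.07 and 0.05 on the DMSO arrays. The difference was -0.37 (SE 0.13, limma adjusted p = 0.0802). With leflunomide array 3 left out it was called (-0.50, adjusted p = 0.021). For ephb3a the values were -0.08, -0.26 and -0.22 on the leflunomide arrays, against 0.10, 0.08 and 0.38 on the DMSO arrays, a difference of -0.38 (SE 0.12, adjusted p = 0.063). The remaining receptors, epha6, ephb2b, ephb4a, a receptor of venous endothelium, and ephb4b had differences from -0.21 to 0.10. The family median was -0.13, and 8 of its 9 differences were below 0, both epha4a probe sets among them. Of all 12731 tested probe sets 5600 were below 0.

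Ephrins, the ligands of Eph receptors, had the most probe sets of any family here. Of the 12 tested, 0 passed in limma and 1 had an unadjusted p under 0.05. For all tested probe sets these shares were 20.6% and 35.4%. The A class, which is held in the membrane by a lipid anchor and whose members efna2a and efna5a are graded across the tectum, had differences from -0.18 to 0.24 in 6 probe sets. The B class, which spans the membrane, had differences from -0.25 to 0.45. The highest were those of the 2 copies of ephrin-B2, which marks arteries and somite borders. For efnb2a the values were 0.36, 0.53 and -0.26 on the leflunomide arrays, against 0.04, -0.36 and -0.04 on the DMSO arrays. Arrays 1 and 2 were above all DMSO arrays and array 3 was not, and the difference was 0.33 (SE 0.22, limma adjusted p = 0.324).

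For efnb2b, one probe set was at 0.06, 0.21 and 0.35 on the leflunomide arrays, against -0.12, -0.17 and -0.06 on the DMSO arrays, without overlap (difference 0.32, SE 0.11, limma adjusted p = 0.0791). The other was at 0.45, 0.81 and -0.05, against -0.02, -0.15 and 0.02, so that array 3 fell back among the DMSO arrays (difference 0.45, SE 0.21, adjusted p = 0.16). The 2 probe sets thus ranked the leflunomide arrays differently, while both means were above 0. Without leflunomide array 3, efnb2a (0.57, adjusted p = 0.0448) and the second efnb2b probe set (0.68, adjusted p = 0.0231) were called higher; without leflunomide array 1, the first efnb2b probe set was (0.39, adjusted p = 0.0486). efna5a had 3 probe sets with differences of -0.18, -0.11 and 0.24, and efnb1 had 2 with -0.04 and 0.03. None of these was called.

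**Figure D3:**
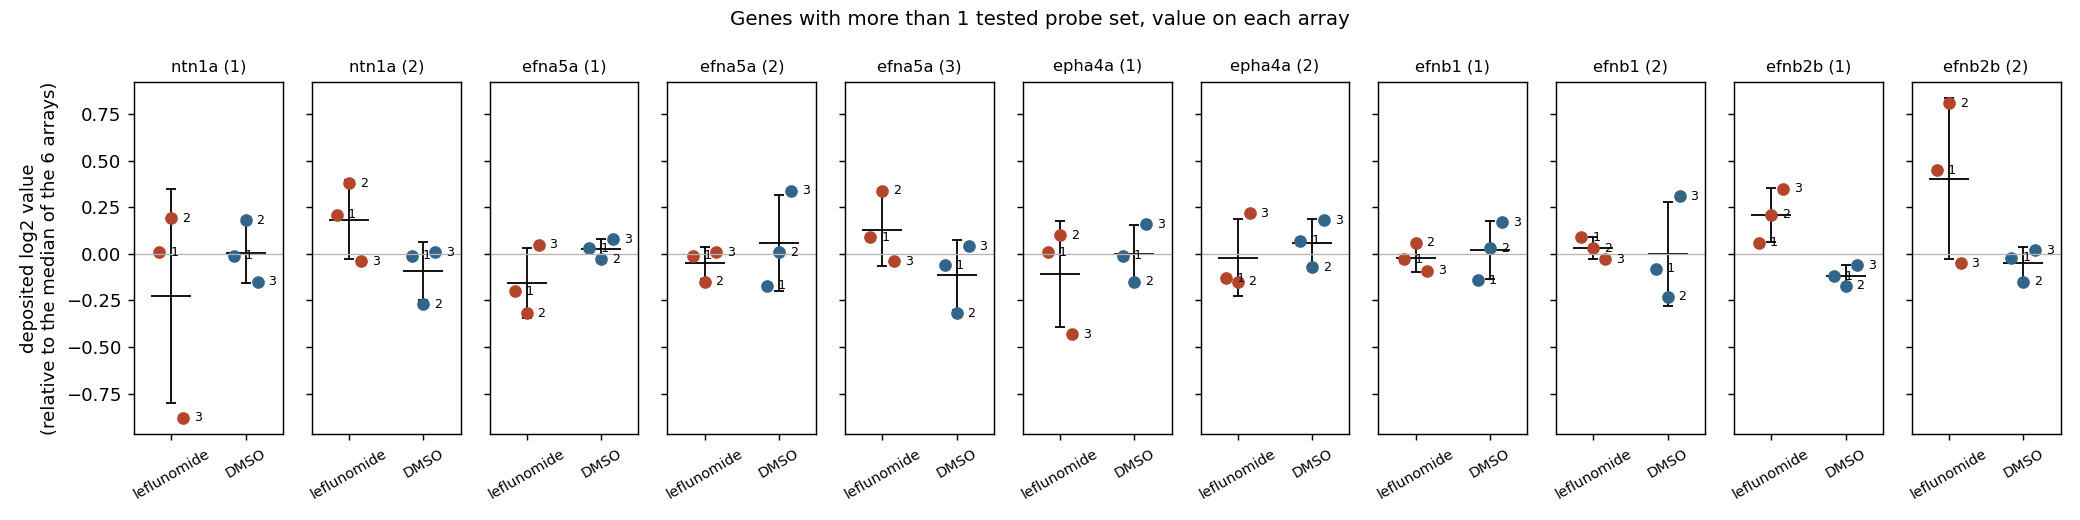
Deposited log2 values, relative to the median of the 6 arrays, for the 5 genes with more than 1 tested probe set, with leflunomide arrays in red and DMSO arrays in blue, numbered 1 to 3; bars show the mean and SD of 3 arrays. Leflunomide array 3 is lowest at the first ntn1a probe set (-0.88) and the first epha4a one (-0.43), and highest of the leflunomide arrays at the first efnb2b one (0.35).

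Of 8 tested semaphorins, 1 fell and 0 rose, or 12.5% called lower, near the 10.8% of all tested probe sets. sema5a encodes a transmembrane semaphorin with thrombospondin repeats. Its values were -0.10, -0.36 and -0.34 on the leflunomide arrays, against 0.41, 0.60 and 0.10 on the DMSO arrays, of which array 3 came nearest to the leflunomide arrays. The fall was 0.63 (SE 0.15, 1.55-fold, limma adjusted p = 0.0256). It missed the threshold when any of 4 arrays was left out: DMSO array 1 (adjusted p = 0.0878), DMSO array 2 (adjusted p = 0.0849), leflunomide array 2 (adjusted p = 0.076) or leflunomide array 3 (adjusted p = 0.0578).

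The secreted class 3 semaphorins, mostly repellents, had differences from -0.13 to 0.28 in 5 tested probe sets, and 0 were called. sema3h had the highest, with 0.25, 0.10 and 0.05 on the leflunomide arrays, against -0.23, -0.15 and -0.05 on the DMSO arrays. Its groups did not overlap, but the difference of 0.28 (SE 0.11) had limma adjusted p = 0.10. Over all tested probe sets 20.6% were called, and 22.4% lay above DMSO without overlap. sema3d was at 0.33, 0.40 and -0.10 on the leflunomide arrays, against -0.08, 0.05 and -0.05 on the DMSO arrays. Its difference of 0.23 (SE 0.15, adjusted p = 0.303) became 0.39 (adjusted p = 0.0463) without leflunomide array 3. sema3aa and sema3ab, the zebrafish copies of semaphorin 3A, had differences of -0.13 and 0.14, and sema3e, sema4e and sema6ca of -0.05, -0.03 and 0.06.

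The receptors of semaphorins were not called, 0 of 3 plexins and 0 of 2 neuropilins, with 2 of the 5 at an unadjusted p under 0.05. Across all tested probe sets 20.6% were called and 35.4% had such a p. plxnd1, the plexin of blood vessels and a receptor for Sema3E, had the widest gap of the 5. Its values were 0.02, -1.02 and -0.87 on the leflunomide arrays, against 0.25, -0.02 and 0.14 on the DMSO arrays. Leflunomide array 1 lay among the DMSO arrays and arrays 2 and 3 far below, so the difference of -0.74 (SE 0.26) had limma adjusted p = 0.08; without leflunomide array 1 it was -1.07 (adjusted p = 0.002). In the endothelial list, 3 of 10 tested genes fell (tie1, erg and hey2, by 0.67, 0.69 and 0.40) and 1 rose (gata2a, 0.68), each call lost in some fit without 1 array (highest adjusted p 0.0576 to 0.133), with medians of -0.20, -0.59 and -0.38 on the 3 leflunomide arrays. Of all tested genes 21.6% were called, 11.1% lower and 10.5% higher. The part of endothelial genes in the plxnd1 values was not tested.

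plxnb2a.1 and plxnb2a.3, related gene copies that encode a receptor for class 4 semaphorins, had differences of 0.26 (SE 0.11, adjusted p = 0.124) and 0.15 (SE 0.20, adjusted p = 0.663). The first was at 0.05, 0.08 and 0.28 on the leflunomide arrays, against -0.20, -0.05 and -0.13 on the DMSO arrays. These did not overlap. Of the neuropilins, which also bind VEGF, nrp1a was at 0.28, 0.53 and -0.22 on the leflunomide arrays, against -0.01, -0.23 and 0.01 on the DMSO arrays. Its arrays 1 and 2 were above and array 3 among the DMSO arrays (difference 0.27, SE 0.19, adjusted p = 0.361), and nrp2b had a difference of 0.09.

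Of 4 tested netrin probe sets 0 passed in limma, and 0 had an unadjusted p under 0.05. Across all tested probe sets these shares were 20.6% and 35.4%. ntn1a and ntn1b are the netrin-1 genes of the floor plate and its surroundings. One ntn1a probe set was at 0.01, 0.19 and -0.88 on the leflunomide arrays, against -0.01, 0.18 and -0.15 on the DMSO arrays. The other was at 0.21, 0.38 and -0.04, against -0.01, -0.27 and 0.01. Their differences had opposite signs, -0.23 (SE 0.27, adjusted p = 0.593) and 0.28 (SE 0.14, adjusted p = 0.209), and in both leflunomide array 3 was the lowest of its group. ntn1b had a difference of 0.07 and ntng1a, a membrane-anchored netrin-G, of -0.01. In the midline list, of floor plate and notochord genes, 3 of 16 tested genes rose and 1 fell, or 25.0% called. Among all tested genes 21.6% were called, 11.1% lower and 10.5% higher. ntd5 rose by 0.80 (limma adjusted p = 0.00842), with its call kept in all 6 fits without 1 array, and the calls of noto (0.45) and foxa3 (0.39) were lost in all 6. spon1b, which encodes an F-spondin of the floor plate, fell by 1.07 (adjusted p = 0.0319), and 5 of those 6 fits did not call it.

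The 4 members below the level filter, epha4l, sema3bl, sema4ab and the third ntn1a probe set, had differences of 0.07, 0.01, -0.10 and -0.01, with adjusted p from 0.538 to 0.963 when all probe sets were fitted. unc50 had a difference of 0.09 (adjusted p = 0.62). For 38 of the 39 tested members that were not called, limma's 95% interval lay within 1 of 0 on the log2 scale, a 2.00-fold change either way; the exception was plxnd1. For 23 of the 39 it lay within 0.5. These intervals are not adjusted for the number of probe sets.

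Other guidance genes, in lists that held no member, were called more often as lower than as higher. These lists, like the marker lists, were chosen with earlier results of these data known. In the list of other cues and receptors, 10 of 37 tested genes fell and 1 rose, against 21.6% of 7849 tested genes called, 11.1% lower and 10.5% higher. The list median was -0.13, against 0.04 for all tested genes. neo1a encodes neogenin, the relative of Dcc that binds netrins and repulsive guidance molecules. It was at -0.31, -0.97 and -0.85 on the leflunomide arrays, against 0.39, 0.41 and 0.31 on the DMSO arrays, without overlap, and fell by 1.08 (SE 0.17, 2.11-fold, limma adjusted p = 0.00643). boc, a coreceptor for Sonic hedgehog as an axon attractant, fell by 0.77 (SE 0.10, adjusted p = 0.00319) and by 0.58 at its other probe set, which was called as well. lrig1, a membrane protein that restrains growth factor receptors, fell by 1.19 (SE 0.12, adjusted p = 0.00149).

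The 1 gene that rose was cxcl12a, a chemokine that guides migrating cells and axons, by 0.97 (SE 0.09, limma adjusted p = 0.00117), while its other probe set was at -0.08 and not called. All 4 of these calls, the lowest in adjusted p of their list, held without any 1 array, as did that of ptprfa. The other calls of that list, ptprsa, cxcr4a, lrrn1, islr2, cdon and spon1b, which the midline list also counts, were each lost in 2 to 5 of the 6 fits. Of these genes, lrrn1 was called lower at its other probe sets too (-1.31, -1.29 and -0.92, limma adjusted p = 0.00223, 0.00369 and 0.0191). Another probe set was also called lower for ptprsa (-1.08, adjusted p = 0.0386) and for cdon (-0.80, adjusted p = 0.0098). A further cdon probe set (-0.23) was not called. Among signalling proteins behind the receptors, 9 of 43 tested genes fell and 1 rose, with a median of -0.06. That is 23.3% called in either direction, all but 1 of them lower. Of all tested genes 21.6% were called, 11.1% lower and 10.5% higher. ablim3, an actin-binding LIM protein, fell by 1.10 (SE 0.16, adjusted p = 0.00408). The collapsin response mediators, which relay semaphorin signals to microtubules, had 3 tested genes of the Dpysl family, and all were called lower: dpysl3 by 1.20 (adjusted p = 0.0146), dpysl5a by 0.74 (adjusted p = 0.0103) and dpysl5b, named after its value was seen, by 0.76 (adjusted p = 0.0458). Of these, the call of dpysl3 was lost without DMSO array 1, 2 or 3 (adjusted p up to 0.0572) and that of dpysl5b in 5 of the 6 fits without 1 array (adjusted p up to 0.126). Further genes called lower in the signalling list, farp2, evlb, rock2a, rhogb and nck2a, were each lost in 3 to 5 of these fits. cdc42, named after its value was seen, was called lower at a probe set not used for the count (-0.53, limma adjusted p = 0.0438). It was not called at the probe set counted (-0.07) nor at its others (-0.28 and 0.03). pik3r1, a regulatory subunit of PI3 kinase, rose by 1.07 (adjusted p = 0.00683), with -0.17 at its other probe set.

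In the neuron list, 12 of 19 tested genes fell and 0 rose, or 63.2% called, with a list median of -0.83. The share called over all tested genes was 21.6%, with 11.1% lower and 10.5% higher. The 7 neuron genes that were not called had differences from -0.66 (elavl3) to -0.02 (lhx3). gap43, a growth cone protein, was at -0.34, -1.12 and -1.28 on the leflunomide arrays, against 0.34, 0.59 and 0.50 on the DMSO arrays, and fell by 1.39 (SE 0.23, limma adjusted p = 0.00773). tubb5, snap25b and stmn2a, a tubulin, a synaptic protein and a microtubule regulator of axons, fell by 1.19, 0.94 and 1.09, with -0.33 at the other tubb5 probe set. These 4 calls held without any 1 array. The other calls of the list, gng3, inab, sncb, mllt11, lhx1a, elavl4, snap25a and lhx5, were each lost in 3 to 5 of the 6 fits without 1 array. At other probe sets of these genes, sncb (-0.94) was called lower, and gng3 (-0.20) and lhx1a (-0.45) were not called. The median change from the DMSO mean was -0.49, -1.07 and -1.08 in the neuron list on leflunomide arrays 1, 2 and 3, beside -0.75, -1.01 and -0.95 for the Robo receptors. The neural crest list had -0.43, -0.85 and -0.92, again smallest in size on array 1. Over all called probe sets the median size of the change was likewise smallest on array 1, at 0.55, against 0.76 on array 2 and 0.72 on array 3. For Eph receptors, ephrins and semaphorins the family medians lay between -0.21 and 0.07 on every leflunomide array. Apart from the Robo receptors, which have only 3 probe sets, the families of fewer probe sets spread from -0.54 (Slits, array 3) to 0.37 (neuropilins, array 2). The part of neuron or neural crest genes in the Robo values was not tested.

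**Figure D4:**
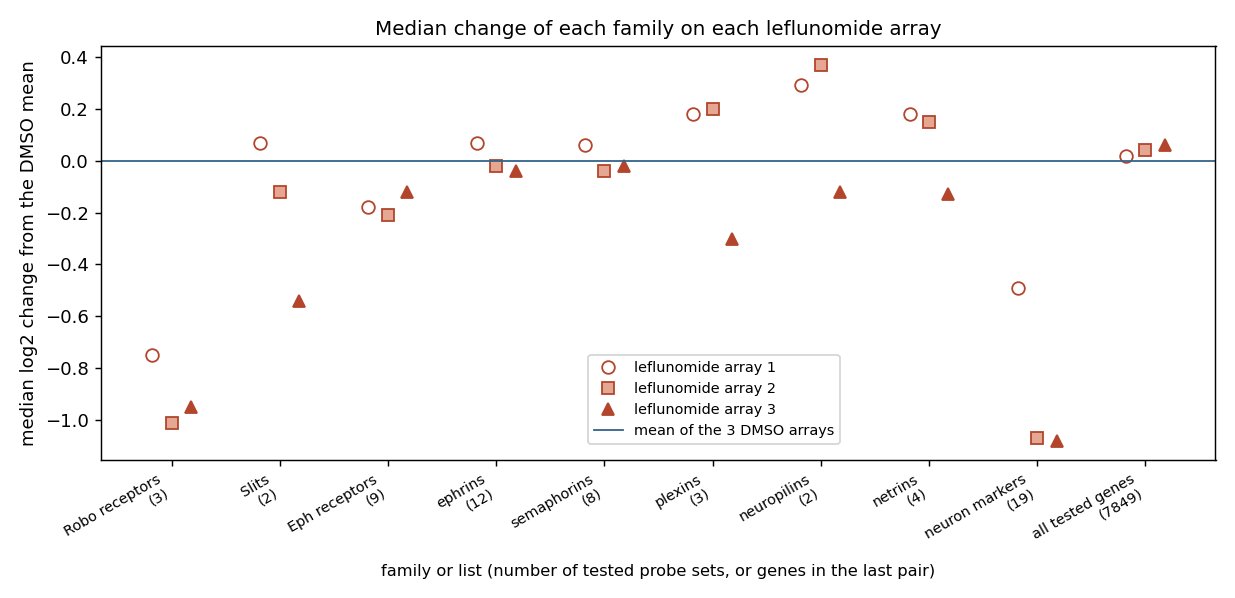
Median log2 change of each family from the mean of the 3 DMSO arrays (blue line at 0), on leflunomide arrays 1 to 3, beside the neuron markers and all tested genes; the number tested stands under each name. Robo receptors lie between -1.01 and -0.75 and neuron markers between -1.08 and -0.49, while the medians of all tested genes are 0.02 to 0.06.

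Lists of other cells that use guidance molecules gave further counts, to be read beside 21.6% of all tested genes called, 11.1% lower and 10.5% higher. Among eye patterning genes 3 of 17 tested fell and 0 rose, or 17.6% called lower, beside 11.1% of all tested genes called lower. These were pax6a by 0.88, aldh1a2 by 0.82 and rx2 by 0.48, the last lost without DMSO array 1, 2 or 3 (adjusted p up to 0.0642). The next by adjusted p, rx3, had a difference the other way, of 0.66, and was not called (limma adjusted p = 0.0529). Among neural crest genes 8 of 13 fell and 0 rose, or 61.5% called, led by mitfa (-2.15), twist1a (-1.29), crestin (-3.25) and foxd3 (-1.54). The 5 neural crest genes that were not called had differences from -0.23 (tfap2a) to 0.10 (tfap2c). The calls of sox9b and dlx2a were each lost in 5 of the 6 fits without 1 array. Among somite and muscle genes 9 of 18 fell and 5 rose, or 77.8% called. Lowest in adjusted p were tnnt3a, mylpfa, desma and lfng (-3.60, -4.46, -1.92 and -0.99). Those that rose were tbx16, mespaa, myf5, her7 and tbx6 (1.71, 0.77, 0.81, 0.75 and 0.80). The calls of tbx16 and mespaa held in all 6 fits without 1 array. Those of myf5, her7 and tbx6 were lost in 2 to 6 of these fits. Among the genes that fell, the calls of myod1, dlc and dld were lost in 1, 4 and 5 of these fits. The part of these cells in the guidance values was not tested.

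The leflunomide arrays differed from each other. The main component of variation, 69.0% of the total, put leflunomide array 1 at 14.5, arrays 2 and 3 at 37.5 and 36.1 and the DMSO arrays at -30.1 to -28.6. In the added control transcripts (DapX, LysX, PheX, ThrX), the 3' minus 5' difference was 0.44 to 1.75 on leflunomide array 3, against -0.47 to 0.00 on leflunomide arrays 1 and 2 and -0.58 to 0.22 on the DMSO arrays. Leflunomide array 3 was the lowest of the 6 arrays for 27.3% of the 44 members, against 17.8% of all tested probe sets, leflunomide array 2 for 29.5%, against 20.0%, and DMSO array 2 for 29.5%, against 17.4%. The others were lowest less often among members: leflunomide array 1 for 0.0%, against 10.4%, DMSO array 1 for 11.4%, against 15.9%, and DMSO array 3 for 2.27%, against 18.5%. The number of members called varied with the arrays. It was 2 lower without DMSO array 1, 2 lower without DMSO array 2, 3 lower without DMSO array 3, 6 lower and 1 higher without leflunomide array 1, 3 lower without leflunomide array 2, and 5 lower and 3 higher without leflunomide array 3. The background ran from 8.81% to 22.3% called in the same fits. The part of this control difference in the members' values was not tested beyond the fits without array 3.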

How the data were processed

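RNA from 6 samples of whole embryos, isolated with Trizol per the labels' protocols, was hybridized to Affymetrix zebrafish arrays. Per the submitters' processing notes the authors used GCRMA, of which no version is stated in the sources used here. It corrects background by probe sequence, aligns arrays by quantiles and gives 1 value per probe set, so the deposited values were taken as log2. They are centred, which no source states: each probe set has a median of 0 over its 6 values, within 5e-07. It leaves differences between arrays and removes the level. A coarse level was read from the single-precision rounding step, from values of at least 0.001 in size that lay above the median, next to it, or less than 0.1 below it. All 15502 probe sets that are not array controls could be read: the level was 2 to 4 for 2771, 4 to 8 for 8365, and 8 to 16 for 4366. Even steps occur by chance, so some probe sets under 4 may have entered the 12731 tested.

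Groups came from the sample titles. limma 3.58.1 in R 4.3.3 (lmFit, eBayes, two-sided) was fitted to all tested probe sets with Benjamini-Hochberg adjustment, and tested on simulated data. For lists, a gene took the tested probe set of highest level, then most specific suffix, then first ID. Gene names came from the platform annotation, with 10795 probe sets naming 1 gene, 135 several and 4572 none. All 48 member probe sets were found by gene identifier in the RefSeq table of assembly GRCz12tu, with 0 symbols changed. Close paralogs may share probe sets. The members and lists were chosen with earlier results of these data known. Named were called members with their array values, the member of each family with the largest difference, genes with several probe sets, and up to 4 genes of a list by lowest adjusted p; others are described as members of their family. Lists covered signalling proteins, other cues and receptors, and markers of neurons, midline, hindbrain segments, eye, somites and muscle, endothelium and neural crest. An exact permutation test of 3 against 3 cannot go below p = 0.10, so none is given. Alternatives covered the filter, scaling, variance model, array weights, replicate block, each array left out, a stricter threshold and 1 value per gene.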

Additional observations from a re-analysis of the deposited data

How the results depend on the processing

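The 5 members called lower and 0 called higher were the same in number with no filter, with medians aligned, with trend and robust variance (trend on the recovered level) and with 1 mean value per gene, the last counted in genes. Members called lower were 1 at a level of at least 8, where 6 members were tested, and 2 at an adjusted p under 0.01. Eph receptors called lower were 3 with 75th percentiles aligned, 2 with quantile normalization, 2 with array weights, and 0 at an adjusted p under 0.01. They were also 0 at a level of at least 8, where only epha6 and ephb2b were tested and epha4b was not. Semaphorins called lower were 0 at an adjusted p under 0.01, and no semaphorin reached a level of at least 8, so none was tested there. Robo and Slit genes called lower were 1 at a level of at least 8, where robo3 was the only one tested. Members called lower were 7 with 75th percentiles aligned and 6 with quantile normalization, array weights or the replicate block. With the replicate block, plexins and neuropilins called lower were 1, and the counts of the other families were the same as without it. Leaving out each array gave these ranges: members called lower 2 to 6 and higher 0 to 3, Eph receptors lower 0 to 2, ephrins higher 0 to 2, semaphorins lower 0 to 1 and higher 0 to 1, plexins and neuropilins lower 0 to 1, Robo and Slit lower 2 to 3. No called member changed sign in any of these fits. The cause was not tested, except that the strict filter and the fits without an array had fewer probe sets or samples. Same-numbered arrays had deviations from their group means that correlated by 0.333, 0.19 and 0.074. Each array correlated best with its own number, but the titles do not say that a number marks a shared clutch or day, so the samples were not treated as paired. With the block, plxnd1 was called (-0.74, limma adjusted p = 0.0369). The medians of all tested probe sets moved by less than 0.1 between scalings, from -0.018 to 0.04. Values near the lower limit of the array, and changes smaller than about the intervals given, are not resolved with 3 arrays a group.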
